A study of Homo sapiens with 8 samples.

Results

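Gene expression was compared between 2 lung cancer lines, NCI-H1299 (H1299) and NCI-H2009 (H2009), in the absence of any targeted knockdown. The comparison took the 4 arrays of the series, out of 8, whose cells carried a control short hairpin RNA: H1299 with a hairpin against GFP, H1299 with one against luciferase (LUC), and the same pair of hairpins in H2009. Both are established human lines that were derived from non-small cell lung cancer, and the labels name the cells only as lung cancer cells. All 4 cultures had been infected with lentivirus for 2 days and kept under puromycin for 2 more, and total RNA was taken on day 4, so virus, selection drug and a hairpin without a human target were common to both lines. The other 4 arrays carried 2 hairpins against the receptor-like protein PTK7 in each line. They were used here for the estimate of spread and, apart from that, as a second measurement of the line difference. There was 1 array per hairpin and line. The p-values thus rest on the spread between arrays of different hairpins in a line, which includes any effect of the hairpin itself. No hairpin was repeated in a line, and the labels do not tell how far the cultures were independent. A difference between 2 lines is also a difference between their 2 donors, which cannot be told apart from tumour type or cell state here.

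Carcinoma cells can hold an epithelial or a mesenchymal state. In the epithelial state, E-cadherin, claudins and desmosomal proteins seal cells to each other, and transcription factors such as GRHL2, ELF3 and EHF keep that program on. In the mesenchymal state, factors such as ZEB1 and ZEB2 repress these genes by binding E-box sequences in their promoters, while members of the miR-200 family of microRNAs repress ZEB1 and ZEB2 in return. Lung adenocarcinoma often also keeps the lineage factor NKX2-1 of the distal airway.

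The promoters of 3 epithelial genes that were higher in H2009 are printed as examples with the E-box CACCTG, a sequence that ZEB and SNAI proteins are known to bind. They are RAB25, a small GTPase of epithelial membrane traffic, ELF3, an epithelial ETS factor, and AP1M2, the epithelial subunit of a clathrin adaptor. Each run is the 250 bases before the gene's start in RefSeq (GRCh38.p14), 5′ to 3′ on the gene's strand, with the matches in capitals. The promoter of CLDN7, a claudin with one of the largest differences of its list, is shown beside them as one without a match.
RAB25, chr1:156060910-156061159, plus strand: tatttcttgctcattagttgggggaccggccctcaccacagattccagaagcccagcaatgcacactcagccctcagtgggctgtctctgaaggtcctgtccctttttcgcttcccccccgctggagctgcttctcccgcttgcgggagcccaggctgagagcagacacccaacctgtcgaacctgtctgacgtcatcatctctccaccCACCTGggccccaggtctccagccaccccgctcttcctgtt
ELF3, chr1:202010337-202010586, plus strand: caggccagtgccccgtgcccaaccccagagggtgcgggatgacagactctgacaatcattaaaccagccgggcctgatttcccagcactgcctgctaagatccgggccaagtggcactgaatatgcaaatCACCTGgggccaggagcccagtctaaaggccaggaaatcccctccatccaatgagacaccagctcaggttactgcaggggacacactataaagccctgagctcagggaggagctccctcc
AP1M2, chr19:10587313-10587562, minus strand: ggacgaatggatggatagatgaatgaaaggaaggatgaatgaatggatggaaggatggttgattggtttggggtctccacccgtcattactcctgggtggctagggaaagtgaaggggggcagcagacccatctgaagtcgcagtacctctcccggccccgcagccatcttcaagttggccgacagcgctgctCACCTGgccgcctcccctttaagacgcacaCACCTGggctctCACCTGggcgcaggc
CLDN7, chr17:7263214-7263463, minus strand: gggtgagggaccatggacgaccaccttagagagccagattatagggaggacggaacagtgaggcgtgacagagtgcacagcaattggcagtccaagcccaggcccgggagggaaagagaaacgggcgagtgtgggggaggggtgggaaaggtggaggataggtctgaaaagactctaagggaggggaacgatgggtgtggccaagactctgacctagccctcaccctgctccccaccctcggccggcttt
AP1M2 held 3 matches, all within 60 bases of the start. Searched on both strands, CACCTG was present in 4 of 8 promoters of the epithelial regulator list (50.0%), 2 of 9 of the epithelial junction list (22.2%) and 4 of 11 of the desmosome list (36.4%). Of these 10 genes with a match, 5 were higher in H2009 and 5 did not pass, CRB3, TJP1, GRHL3, DSG1 and DSG2. Over all measured members, 15 of 16 regulators, 12 of 16 junction genes and 6 of 14 desmosome genes were higher in H2009. List members beyond those 8, 9 and 11 had no promoter in the sequence table. Among the promoters of all genes tested the share was 16.8%, and among all 27305 promoters in the table it was 17.5%. The sequence AACCNGTT, the core of the site bound by grainyhead proteins such as GRHL2, differs from CACCTG, though the run ACCTG can occur in both. Also searched on both strands, AACCNGTT was found in 1 of the 9 junction promoters, that of CGN. It was found in 0 of the 8 regulator and 0 of the 11 desmosome promoters, and in 1.2% of the promoters of all genes tested. These are matches of letters only, and no binding was measured.

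The microRNAs of the miR-200 family are shown because their seeds, in capitals (bases 2 to 8), define 2 groups that bind different sites. They come from RefSeq (GRCh38.p14), and this list was added outside the fixed lists.
hsa-miR-200b-3p: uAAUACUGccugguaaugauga
hsa-miR-200c-3p: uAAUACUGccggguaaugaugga
hsa-miR-429: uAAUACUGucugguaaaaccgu
hsa-miR-200a-3p: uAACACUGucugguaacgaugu
hsa-miR-141-3p: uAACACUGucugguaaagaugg
miR-200b, miR-200c and miR-429 share the seed AAUACUG, and miR-200a and miR-141 share AACACUG. The array reads the region of the precursor and not these mature molecules. All 5 precursors were dim in all control arrays. For MIR200C the log2 values were 3.61 and 3.79 in H1299 (GFP, then LUC hairpin, the order used throughout) and 4.32 and 4.21 in H2009, so the lines did not overlap. The difference was −0.56 ± 0.13 (log2, H1299 minus H2009, ± SE; adjusted p = 0.0186 by limma, Benjamini-Hochberg over all genes), and it was lost when a control array was left out (highest adjusted p 0.135). The other 4 differed by −0.15 to 0.16 and did not pass.

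Values are log2 expression as deposited, and a difference of 1 is a 2-fold difference. The medians of the 4 control arrays lay between 5.32 and 5.35. Arrays of 1 line resembled each other closely: across 18404 genes the SD of the log2 difference between the 2 hairpins was 0.3 in H1299 and 0.19 in H2009, and 172 and 36 genes differed by 1 or more. Between the lines that SD was 0.91 to 0.92, and 2617 to 2736 genes differed by 1 or more. Correlation across genes was 0.991 and 0.997 within the lines and 0.917 to 0.921 between them, where genes share the same arrays. No detection call comes with the values. A gene among the dimmest 6135, with a mean over the 4 control arrays of 5 or less, may thus not be expressed at all. A value of 5 or less is called dim below.

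At an adjusted p under 0.05, 4566 of 18404 genes (24.8%) differed between the lines. Of these, 2296 (12.5%) were higher in H1299 and 2270 (12.3%) were higher in H2009. The numbers were alike, but the sizes were not: 240 of the genes at 4-fold or more were higher in H1299 and 545 were higher in H2009, and at 8-fold or more the counts were 91 and 266. At 2-fold or more, 2408 genes passed (13.1%), 1043 (5.67%) higher in H1299 and 1365 (7.42%) higher in H2009. The median difference of all genes was 0.064, and the median SE was 0.16. With 2 arrays per line the calls lean on each array. When each of the 4 control arrays was left out in turn, the count fell to 2970 without the GFP array of H1299, 2910 without its LUC array, 2375 without the GFP array of H2009 and 2196 without its LUC array. A call that passed in all 4 of these fits is described below as kept, and 1969 genes (10.7%) were kept, 863 higher in H1299 (4.69%) and 1106 higher in H2009 (6.01%). By brightness, in 3 groups of about equal size, the share called was 8.64% for the dimmest genes, 34.6% for the middle group and 31.2% for the brightest.

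**Figure D1:**
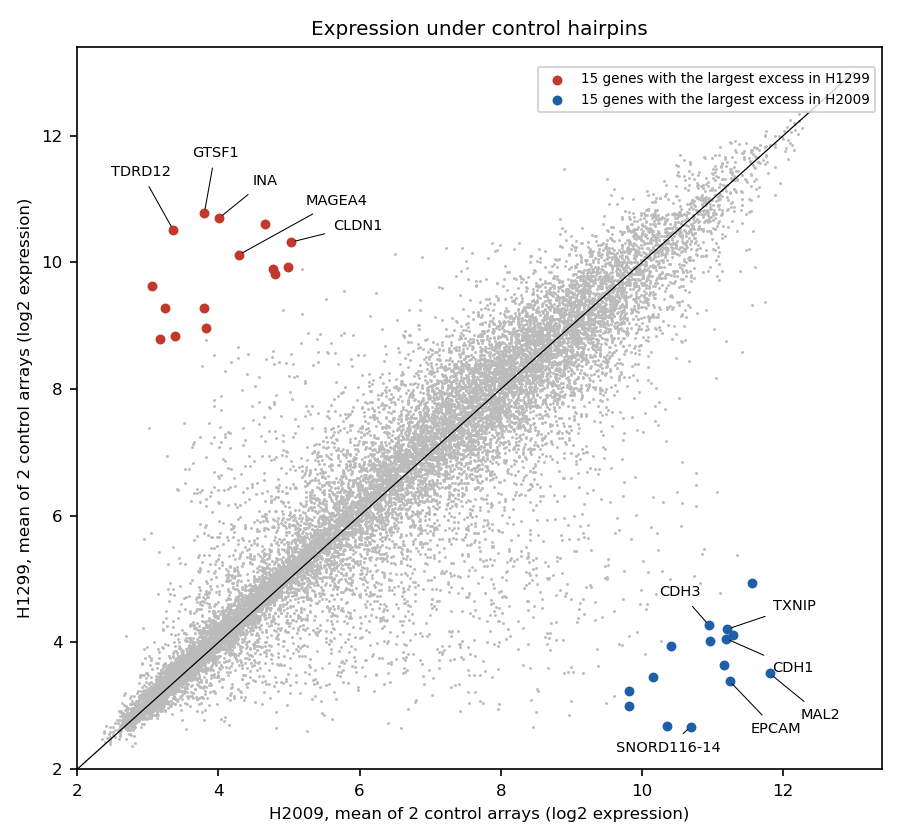
Mean log2 expression of each gene in the 2 control arrays of H2009 (x axis) and H1299 (y axis), 1 point per gene, with the line of equal expression. The 15 genes with the largest excess in H1299 (red) lie between 8.79 and 10.78 in H1299 and at or below 5.03 in H2009, and the 15 with the largest excess in H2009 (blue) lie between 9.81 and 11.81 in H2009 and at or below 4.93 in H1299.

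The 15 largest differences in favour of H1299 ran from 30.8-fold to 142-fold as measured. The lower line stood at 3.06 to 5.03 there, where expression was not separated from background, so folds of this kind may be lower bounds. They include 4 genes best known from germ cells. TDRD12, a Tudor domain protein of the piRNA pathway that silences transposons in the testis, stood at 10.62 and 10.40 in H1299 and at 3.49 and 3.22 in H2009. Its difference was 7.15 ± 0.15 (adjusted p = 6.63e-07). GTSF1, a small zinc finger protein of the same pathway, had 10.93 and 10.63 in H1299 against 3.78 and 3.81 in H2009. HORMAD1, which acts on meiotic chromosomes, had 9.85 and 9.40 against 3.14 and 2.97, and the antigen gene MAGEA4 had 10.00 and 10.23 against 4.23 and 4.34. In each of these genes both H2009 arrays were dim, and the 2 arrays of a line lay far closer together than the lines. INA, which encodes the neuronal intermediate filament alpha-internexin, differed by 6.69 ± 0.23 and NRN1, the neuronal growth protein neuritin, by 5.49 ± 0.15. The others were PLCB4, a phospholipase C (6.04 ± 0.15), C12orf75 (5.95 ± 0.20), IL13RA2, a decoy receptor for interleukin 13 (5.63 ± 0.15), FAM9C (5.45 ± 0.26), CLDN1, LEF1, HOXB2, the peptidase gene MME (5.03 ± 0.16) and PLAC8 (4.94 ± 0.23).

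The 15 largest differences in favour of H2009 ran from 88.5-fold to 315-fold as measured, against levels of 2.67 to 4.93 in H1299, and the same limit holds. MAL2, a membrane protein of apical transport in epithelia, was at 3.54 and 3.49 in H1299 and at 11.88 and 11.75 in H2009, a difference of −8.30 ± 0.17 (adjusted p = 6.63e-07). EPCAM, an epithelial adhesion molecule, had 3.46 and 3.32 against 11.18 and 11.30, a difference of −7.85 ± 0.13 (adjusted p = 5.95e-07). CDH1, which encodes E-cadherin, had 4.19 and 3.92 against 11.22 and 11.17, and CDH3, P-cadherin, had 4.27 and 4.27 against 10.99 and 10.92. These epithelial genes were dim in both H1299 arrays. TXNIP, an inhibitor of thioredoxin and of glucose uptake, had 4.33 and 4.09 in H1299 and 11.23 and 11.20 in H2009. LCP1, an actin bundling protein best known from leukocytes, differed by −6.93 ± 0.11, and UCA1, a long non-coding RNA, by −7.18 ± 0.15. The remaining genes were 4 copies of the small nucleolar RNA SNORD116 (−8.02 to −6.83), ADGRF1, an adhesion G protein-coupled receptor (−6.70 ± 0.15), the histone gene H3C11 (−6.63 ± 0.17), the serine protease gene TMPRSS11E (−6.58 ± 0.16) and CEACAM6 (−6.47 ± 0.31). H3C11 and the SNORD116 copies have near-identical relatives, so the copy measured is uncertain. All 30 calls were kept (highest adjusted p 0.00117).

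The epithelial regulators and the epithelial junction genes had the lowest medians of all the lists. Of 16 epithelial regulators measured, 15 were higher in H2009 and 0 in H1299 (93.8% called, against 24.8% of all genes), 14 of the calls were kept, and the median difference was −4.32. The transcription factors GRHL2 and EHF, which hold epithelial genes on, had values of 3.87 and 4.09 (GRHL2) and 3.83 and 3.79 (EHF) in H1299. In H2009 they had 8.52 and 8.78 (GRHL2) and 9.96 and 10.11 (EHF), so that GRHL2 differed by −4.67 ± 0.14 and EHF by −6.23 ± 0.23. RAB25, whose promoter is printed above, had 3.87 and 4.16 against 10.30 and 10.24 (−6.26 ± 0.16, adjusted p = 1.55e-06). The splicing factor gene ESRP2 differed by −3.77, ELF3 by −4.31 and AP1M2 by −2.83. The surface protease matriptase, encoded by ST14, differed by −5.05 ± 0.18, and its inhibitors SPINT1 and SPINT2 by −4.34 and −4.49. GRHL3 was the 1 regulator that did not pass (−0.32, adjusted p = 0.378).

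Of 16 epithelial junction genes, 12 were higher in H2009, 10 of them kept, and 1 in H1299 (81.2% called). The median was −2.25. The tight junction gene CLDN7 had 4.81 and 4.75 in H1299 and 11.16 and 11.06 in H2009 (−6.33 ± 0.19), and MARVELD2, tricellulin, differed by −4.35 ± 0.48. The scaffold gene CGN, cingulin, differed by −2.17 and TJP3 by −2.34, while the scaffold gene TJP1 (−0.16), CXADR (0.10) and CRB3 (−0.40) did not pass. CLDN1, another claudin, was the single member called higher in H1299. It had 10.42 and 10.21 in H1299 and 5.01 and 5.05 in H2009, a difference of 5.29 ± 0.31 (adjusted p = 4.65e-05), and the call was kept.

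Of 14 desmosome genes, 6 were higher in H2009, with 4 kept: the plaque proteins plakoglobin, JUP (−4.35 ± 0.31), desmoplakin, DSP (−1.17 ± 0.19), plakophilin 3, PKP3 (−2.0 ± 0.26), and the desmosomal cadherin DSC2 (−1.64 ± 0.16). JUP had 6.55 and 5.86 in H1299 and 10.62 and 10.49 in H2009. The share called was 42.9%, the median of the list was −0.46, and 0 of its genes were higher in H1299. The keratins, which form the intermediate filaments of epithelia, divided within the list: 7 of 13 were higher in H2009 (53.8%), with a median of −0.49, and 4 calls were kept. KRT19 had 5.35 and 5.42 in H1299 against 11.38 and 11.32 in H2009 (−5.97 ± 0.15). KRT7 differed by −5.41 ± 0.20 and KRT13 by −4.70 ± 0.14. KRT18, a keratin of simple epithelia, was at 11.36 and 10.56 in H1299 and at 11.30 and 11.26 in H2009, so the lines overlapped (−0.32 ± 0.31, adjusted p = 0.532). Its partner KRT8 had 9.96 and 8.68 against 11.50 and 11.62, and its difference of −2.24 ± 0.41 was called but not kept.

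**Figure D2:**
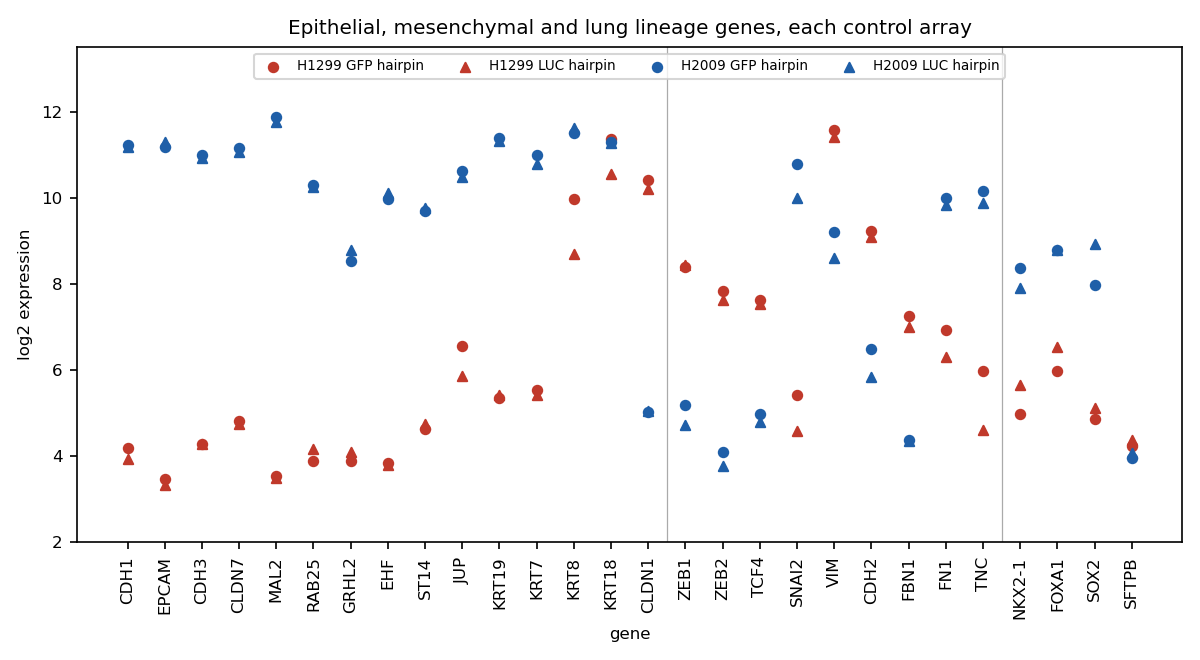
Log2 expression (y axis) of 28 epithelial, mesenchymal and lung lineage genes (x axis) in each control array, red for H1299 and blue for H2009, circles for the GFP hairpin and triangles for the LUC hairpin. The arrays of CDH1 stand at 3.92 and 4.19 in H1299 and at 11.17 and 11.22 in H2009. The order turns for CLDN1, ZEB1, ZEB2, TCF4, VIM, CDH2, FBN1 and, by a mean of only 0.29, SFTPB. The 2 lines overlap at KRT18.

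Repressors of the epithelial program were not all on the same side. ZEB1 had 8.38 and 8.44 in H1299 and 5.18 and 4.72 in H2009, a difference of 3.46 ± 0.19 (adjusted p = 3.42e-05). ZEB2 had 7.83 and 7.62 against 4.09 and 3.77 (3.80 ± 0.28), and TCF4, an E-box factor of mesenchymal cells, had 7.62 and 7.52 against 4.98 and 4.79 (2.68 ± 0.20). SNAI2, also known as Slug, was on the other side, with 5.42 and 4.58 in H1299 and 10.79 and 9.99 in H2009, a difference of −5.39 ± 0.45 (adjusted p = 0.000244). These 4 calls were kept. In all, 5 of the 10 factors were higher in H1299 and 2 in H2009 (70.0% called), with a median of 0.26. TWIST1 (0.55 ± 0.14), PRRX1 (1.07 ± 0.23) and SNAI1 (−1.02 ± 0.24) were called but not kept.

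The mesenchymal markers were divided in the same manner: 5 of 19 were higher in H1299 and 5 in H2009 (52.6% called), with a median of 0.15. VIM, vimentin, had 11.57 and 11.40 in H1299 and 9.21 and 8.60 in H2009 (2.58 ± 0.22). CDH2, N-cadherin, differed by 3.0 ± 0.21 and FBN1, fibrillin, by 2.76 ± 0.24. The secreted matrix proteins fibronectin, FN1 (−3.29 ± 0.22), tenascin C, TNC (−4.74 ± 0.64), and osteonectin, SPARC (−3.42 ± 0.57), were higher in H2009, as was S100A4 (−1.50 ± 0.16). Those 7 calls were kept. TNC varied within H1299, where its arrays had 5.96 and 4.59. AXL, a receptor tyrosine kinase of mesenchymal carcinoma cells, had 11.10 and 11.23 in H1299 and 9.70 and 9.53 in H2009 without overlap. Its difference of 1.55 ± 0.60 did not pass (adjusted p = 0.113). On the 4 control arrays alone it passed with adjusted p = 0.000401. In the PTK7 arrays, which enter the estimate of spread, AXL had 11.16 and 9.68 in H1299 and 9.75 and 8.10 in H2009.

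Integrin and basement membrane genes that passed were higher in H2009, while the called collagens and matrix proteases lay on both sides. Of 22 integrins and basement membrane genes, 9 were higher in H2009, with 7 kept, and 0 in H1299 (40.9% called, median −0.57). ITGB6, the beta subunit of an epithelial integrin that activates TGF-beta, had 4.35 and 3.62 in H1299 and 9.74 and 9.61 in H2009 (−5.69 ± 0.23). ITGB4, the hemidesmosome subunit, differed by −3.90 ± 0.33, the laminin chain gene LAMA4 by −3.56 ± 0.13 and ITGB8 by −2.27 ± 0.26. Of 11 interstitial collagen genes, COL12A1 was higher in H1299 (3.63 ± 0.55) and COL6A1 was higher in H2009 (−1.12 ± 0.18), both kept, and 2 more passed without being kept. Of the 11, 36.4% passed. Of 18 matrix metalloproteases and their inhibitors, 4 passed, 22.2% against 24.8% of all genes. MMP16 (1.37 ± 0.22) and the urokinase receptor gene PLAUR (1.27 ± 0.25, not kept) were higher in H1299, and the gelatinase gene MMP2 (−1.72 ± 0.22) and the inhibitor gene TIMP4 (−2.22 ± 0.23) were higher in H2009.

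The lung lineage factors NKX2-1, FOXA1 and SOX2 were higher in H2009. The factor GATA6 was called higher in H1299 (0.72 ± 0.13), though not kept. The surfactant protein genes SFTPB and SFTPC did not pass. NKX2-1, the master regulator of lung epithelium, had 4.96 and 5.64 in H1299 and 8.36 and 7.90 in H2009, a difference of −2.83 ± 0.32 (adjusted p = 0.000955). FOXA1, a pioneer factor of endoderm, differed by −2.55 ± 0.20. SOX2, a factor of proximal airway and stem cells, had 4.85 and 5.12 against 7.96 and 8.92 (−3.46 ± 0.35). LPCAT1, an enzyme of surfactant lipid synthesis, differed by −3.15 ± 0.12. In the other direction, the alveolar type 2 genes LAMP3 (2.62 ± 0.29) and ABCA3, the surfactant lipid transporter (2.20 ± 0.19), were higher in H1299. The surfactant protein gene SFTPB had 4.23 and 4.37 in H1299 and 3.94 and 4.07 in H2009 (0.29 ± 0.14, adjusted p = 0.203), and SFTPC was also dim in both lines (0.15, adjusted p = 0.519). Over the 21 lineage genes, 3 were higher in H1299 and 7 in H2009 (47.6% called), and the median was 0.10.

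Genes of mucous and secretory epithelium passed in 1 direction. Of 19, 8 were higher in H2009 (42.1%), with 7 kept, and 0 in H1299, with a median of −0.32. The membrane mucin gene MUC16 had 4.43 and 4.72 in H1299 and 8.18 and 8.76 in H2009 (−3.89 ± 0.22). CEACAM5 (−3.94 ± 0.33), CEACAM6, AGR2, a chaperone of mucin folding (−3.57 ± 0.33), and WFDC2 (−3.19 ± 0.19) differed in the same direction. The membrane mucin MUC1 was called (−3.13 ± 0.56) but not kept. Neuronal and neuroendocrine genes passed in 4 of 19 cases (21.1%, against 24.8% of all genes), 3 higher in H1299 and 1 in H2009, and 2 of the 4 were kept: UCHL1, a ubiquitin hydrolase of neurons (1.51 ± 0.24), and SYT1, a synaptic vesicle protein (−2.41 ± 0.25). The neuroendocrine markers CHGA (0.10 ± 0.12) and SYP (0.21 ± 0.24) did not pass. INA and NRN1, named above, were not in that list.

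The HOX genes set position along the body axis and are kept on or off in clusters. HOXB, HOXC and HOXD genes that passed were higher in H1299, with 1 exception. Of 10 HOXB genes, 6 were higher in H1299 and 0 in H2009 (60.0% called, median 0.79). HOXB2 had 9.78 and 9.99 in H1299 and 4.68 and 4.87 in H2009 (5.11 ± 0.15), and HOXB9 differed by 3.89 ± 0.42. HOXB5 (−0.14) and HOXB6 (−0.65), which lie between them in the cluster, did not pass. Of 7 HOXC genes, 5 were higher in H1299 (71.4% called, median 1.19). HOXC8 had 8.28 and 8.53 against 4.75 and 4.81 (3.62 ± 0.14), HOXC10 differed by 3.18 ± 0.25 and HOXC9 by 2.65 ± 0.22. Of 9 HOXD genes, 4 were higher in H1299 and HOXD4 in H2009 (55.6% called, median 0.76), and HOXD8 was the 1 kept call (1.74 ± 0.15). HOXA2, the 1 gene of the HOXA cluster analysed here, was on the other side, with 4.85 and 4.38 in H1299 and 7.84 and 7.95 in H2009 (−3.28 ± 0.20).

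Cancer-testis antigens, which are silent in most adult tissues outside the testis, passed at a share near that of all genes, 27.3% against 24.8%. Of 22, 4 were higher in H1299 and 2 in H2009, and the list median of 0.12 was close to that of all genes. Beside MAGEA4, MAGEA10 had 8.59 and 8.42 in H1299 and 4.70 and 4.81 in H2009 (3.75 ± 0.25), and MAGEA1 had 8.03 and 7.94 against 4.31 and 4.35 (3.65 ± 0.14). MAGEB2 (−2.14 ± 0.17) and DDX43 (−1.73 ± 0.14) were higher in H2009. These 5 calls were kept, and MAGEA genes have near-identical copies that probes may not separate. MAGEC2 did not pass (−0.05 ± 0.13). Among 12 imprinted genes, 2 were higher in H1299 and 2 in H2009, 33.3% against 24.8% of all genes. GRB10, an adaptor that restrains insulin signalling (−3.59 ± 0.25), and MEST (−2.84 ± 0.31) were higher in H2009 and kept, while PLAGL1 (1.19 ± 0.31) and GNAS (0.49 ± 0.13) were higher in H1299 and not kept. The median of that list was 0.03 and changed sign with the scaling.

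Receptors and ligands of the EGF family differed in composition. EGFR itself had 8.36 and 8.47 in H1299 and 8.25 and 7.89 in H2009, and the difference of 0.34 ± 0.24 did not pass (adjusted p = 0.374). The partner receptor ERBB3 had 5.30 and 5.25 against 7.79 and 8.38 (−2.81 ± 0.21), and ERBB2 had 7.13 and 6.85 against 8.82 and 8.98 (−1.91 ± 0.29). Among ligands, epiregulin, EREG, had 4.46 and 4.34 against 9.60 and 9.26 (−5.03 ± 0.17). NRG4 (−2.55 ± 0.18) and EGF (−1.94 ± 0.24) were also higher in H2009. NRG1 (1.48 ± 0.21) and NRG2 (1.22 ± 0.13), ligands of ERBB3 and ERBB4, were higher in H1299. Of the 12 genes, 8 passed (66.7%), 3 higher in H1299 and 5 in H2009, and of these HBEGF alone was not kept.

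Of 23 other receptor tyrosine kinases, 2 were higher in H1299 and 8 in H2009 (43.5% called), and the sign of the median (−0.02) changed with the scaling. FGFR1 had 8.90 and 8.87 in H1299 and 5.24 and 5.30 in H2009 (3.62 ± 0.12, adjusted p = 3.68e-06). MST1R, the receptor of macrophage-stimulating protein (−3.47 ± 0.25), KIT, the receptor of stem cell factor (−3.40 ± 0.31), EPHA4 (−2.29 ± 0.28) and EPHB3 (−1.74 ± 0.17) were higher in H2009. MET had 9.30 and 9.06 against 10.64 and 10.49, and its difference of −1.39 ± 0.51 did not pass (adjusted p = 0.0976), though it passed on the control arrays alone (adjusted p = 0.000805). PTK7, the target of the other arrays, had 5.73 and 6.03 in H1299 and 6.64 and 6.86 in H2009 under control hairpins. That difference was −0.87 ± 0.17 (adjusted p = 0.00923), and it was not kept (highest adjusted p 0.082).

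Transcripts that report ERK activity leaned towards H1299: 9 of 19 were higher there and 2 in H2009 (57.9% called, median 0.49). Of these calls, 5 higher in H1299 and 1 higher in H2009 were kept. The feedback inhibitor SPRY4 had 8.82 and 7.97 in H1299 and 5.20 and 4.89 in H2009 (3.35 ± 0.29). The ETS factor ETV4 had 8.37 and 8.05 against 5.09 and 5.12 (3.10 ± 0.33), SPRY2 differed by 1.99 ± 0.20 and the AP-1 member FOSL1 by 1.29 ± 0.22. DUSP4, a phosphatase of ERK, was on the other side with 4.58 and 4.53 against 7.05 and 7.02 (−2.48 ± 0.13), and DUSP6 did not pass (0.28 ± 0.31). In the PTK7 arrays SPRY4 differed by 1.75, ETV4 by 1.29, SPRY2 by 1.75, FOSL1 by 0.40, DUSP4 by −2.74 and DUSP6 by −0.26. There 13 of the 19 members had the same sign. Targets of YAP and TAZ also leaned towards H1299, with 8 of 19 higher there and 2 in H2009 (52.6% called, median 0.61). Of these calls 4 and 2 were kept. ANKRD1 had 7.70 and 8.73 against 5.0 and 4.99 (3.21 ± 0.34), and CCN2, connective tissue growth factor, had 10.28 and 10.33 against 8.36 and 8.16 (2.05 ± 0.24). F3, tissue factor, was higher in H2009 (−4.21 ± 0.22).

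Of 34 Wnt ligands, receptors and antagonists, 4 were higher in H1299 and 6 in H2009, 29.4% against 24.8% of all genes, with a median of 0.08. The ligands WNT7A (−1.53 ± 0.20) and WNT7B (−2.27 ± 0.35), the co-receptor gene LRP5 (−1.30 ± 0.16) and the antagonist gene DKK1 (−2.39 ± 0.34) were higher in H2009, and DKK3 was higher in H1299 (0.89 ± 0.13). WNT5A did not pass (0.12 ± 0.13). LEF1, a nuclear factor at the end of that pathway that stood outside the list, had 9.0 and 8.93 in H1299 and 3.58 and 4.05 in H2009 (5.15 ± 0.29). In the TGF-beta and BMP family, the ligand TGFB1 had 9.45 and 9.35 in H1299 and 6.87 and 6.85 in H2009 (2.54 ± 0.15), whereas TGFB2 had 6.17 and 7.22 against 9.19 and 9.25 (−2.52 ± 0.35). The co-receptor TGFBR3 (3.83 ± 0.18) and the BMP receptor BMPR1B (1.95 ± 0.24) were higher in H1299. The BMP targets ID1 (−2.54 ± 0.18) and ID2 (−3.32 ± 0.25) were higher in H2009. These 6 were the kept calls among 24 members, of which 7 passed (29.2%, against 24.8% of all genes).

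Of 18 genes of the p53 network, 4 were higher in H1299 and 2 in H2009 (33.3% called, against 24.8% of all genes, median 0.51). CDKN1A, the p21 inhibitor of cyclin-dependent kinases, had 8.00 and 7.56 in H1299 and 6.33 and 6.30 in H2009 (1.46 ± 0.17), and SESN2 differed by 2.16 ± 0.28. MDM2 did not pass (0.69 ± 0.79), though it passed on the control arrays alone (adjusted p = 0.00901). Among 16 regulators of G1 phase, 4 were higher in H1299 and 1 in H2009, 31.2% against 24.8% of all genes. RB1, the retinoblastoma gene, had 9.52 and 9.44 in H1299 and 7.37 and 7.46 in H2009 (2.06 ± 0.20), and CDK6 differed by 1.73 ± 0.24. The cyclin genes CCND1 (2.39 ± 0.51) and CCND2 (2.91 ± 0.53) were called but not kept, as was CDKN2A, the p16 inhibitor gene, which was higher in H2009 (−0.65 ± 0.13).

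**Figure D3:**
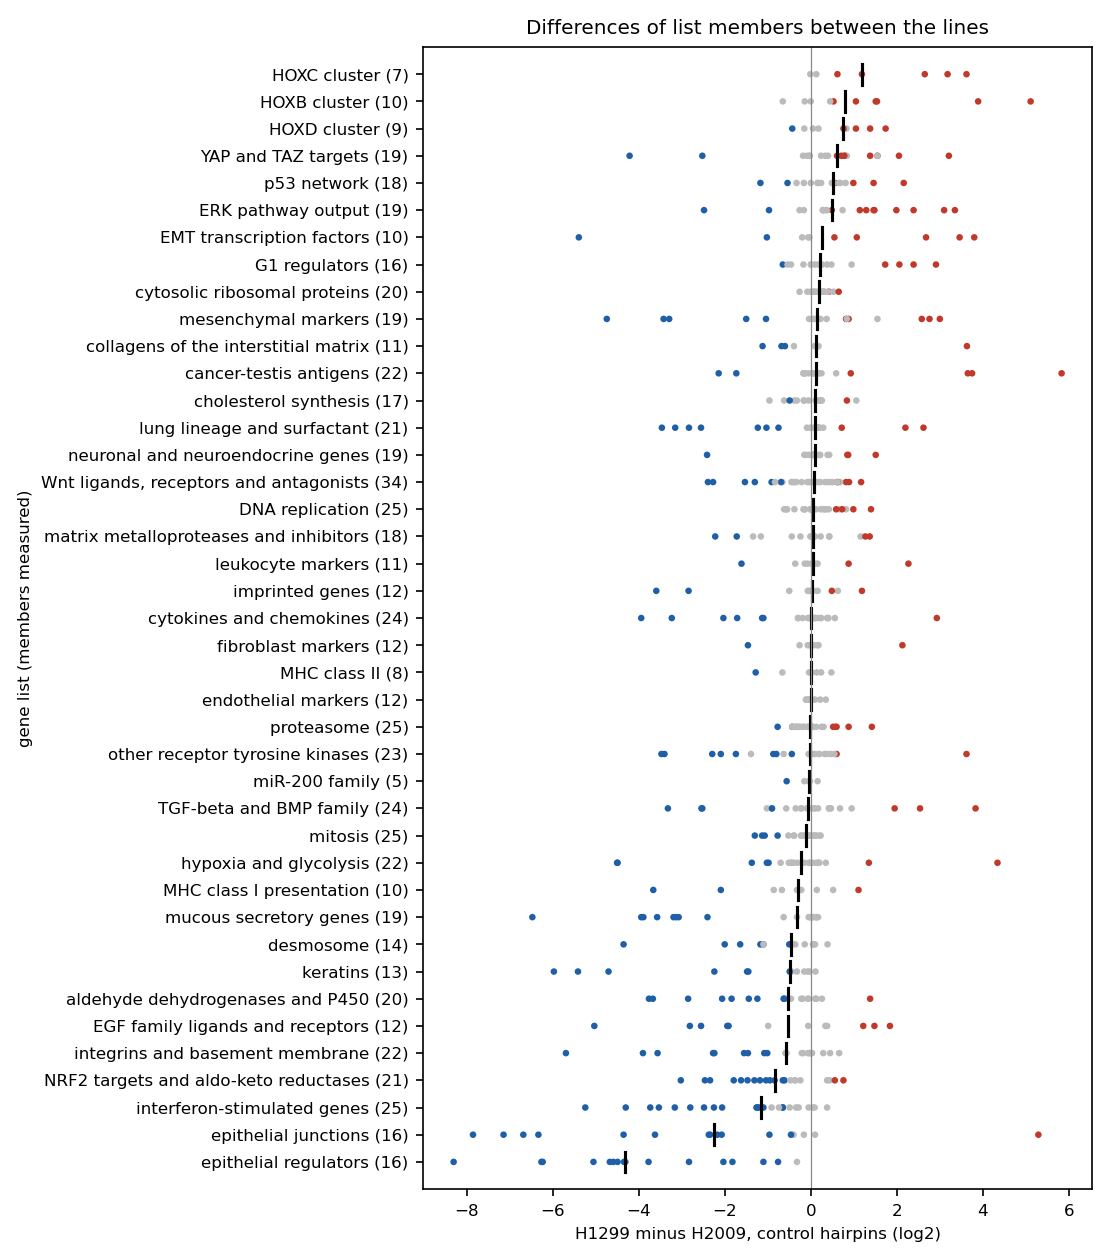
Difference between the lines under control hairpins (x axis, H1299 minus H2009, log2) for each member of each gene list (y axis, members measured in parentheses); red points are called higher in H1299, blue points higher in H2009, grey points did not pass, and black bars are list medians. Medians run from −4.32 for the epithelial regulators to 1.19 for the HOXC cluster.

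Antiviral genes that interferon induces were higher in H2009. Of 25, 16 were called in that direction, 12 of them kept, and 0 were higher in H1299 (64.0% called, median −1.15). IFI44 had 3.40 and 3.13 in H1299 and 8.70 and 8.31 in H2009 (−5.24 ± 0.22, adjusted p = 1.06e-05). IFIT1, which binds viral RNA, had 4.69 and 3.93 against 8.01 and 8.06 (−3.73 ± 0.34), and IFITM1, a membrane restriction factor, had 5.31 and 5.14 against 9.12 and 9.93 (−4.30 ± 0.26). IFI44L (−3.53 ± 0.38), DDX60 (−3.16 ± 0.42) and MX1 (−1.26 ± 0.18) also differed. All cultures carried lentivirus, a virus-free culture was not analysed here, and the part of the infection in these levels was not tested. In the PTK7 arrays the differences of these 6 genes were −3.48, −1.53, −3.01, −2.01, −1.12 and −0.71 in the order named, all smaller in size. Of the 16 called genes of the list, 13 had the same sign there, against 4519 of all 4566 called genes (99%). Of the 25 members, 18 had the same sign. A test of the change between both sets called no gene.

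Genes of antigen presentation by MHC class I passed in 3 of 10 cases, 30% against 24.8% of all genes. The peptide trimming enzyme ERAP2 had 5.36 and 4.68 in H1299 and 8.68 and 8.68 in H2009 (−3.66 ± 0.25), and NLRC5, the activator of class I genes, differed by −2.09 ± 0.14. ERAP1, a related trimming enzyme, was higher in H1299 (1.11 ± 0.24, not kept). B2M, the light chain, did not pass (−0.26 ± 0.17). Of 24 cytokines and chemokines, 1 was higher in H1299, IL32 (2.93 ± 0.41), and 6 in H2009, 29.2% called against 24.8% of all genes. The inflammatory cytokine IL6 had 3.85 and 4.04 in H1299 and 7.51 and 6.83 in H2009 (−3.23 ± 0.34), IL18 had 2.69 and 2.61 against 6.73 and 6.44 (−3.94 ± 0.32), and IL1A differed by −2.03 ± 0.21.

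NRF2, which switches on antioxidant and detoxifying enzymes, had more of its targets high in H2009: 13 of 21 were higher there and 2 in H1299 (71.4% called, median −0.84), of which 6 and 0 were kept. GCLM, the modifier subunit of the enzyme that limits glutathione synthesis, had 7.23 and 7.14 in H1299 and 9.01 and 8.93 in H2009 (−1.79 ± 0.12). The exporter gene ABCC3 (−3.02 ± 0.18), the malic enzyme gene ME1 (−2.46 ± 0.40), AKR1C3, an aldo-keto reductase (−2.34 ± 0.12), and HMOX1, heme oxygenase (−1.62 ± 0.28), were in the same direction. NQO1 had 10.60 and 9.81 against 11.62 and 11.43, and its difference of −1.31 ± 0.31 was not kept. AKR1C genes are close relatives, so probes may not separate them. Of 20 aldehyde dehydrogenases, P450 and related enzymes, 9 were higher in H2009 and 1 in H1299 (50.0% called, median −0.52). ALDH1A3, which makes retinoic acid, differed by −3.67 ± 0.28, and CYP24A1, which degrades vitamin D, by −3.76 ± 0.36. ALDH1A1 did not pass (0.10 ± 0.14).

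Glucose transport showed opposite members. SLC2A3, the neuronal glucose transporter GLUT3, had 9.39 and 9.11 in H1299 and 4.82 and 5.0 in H2009 (4.34 ± 0.23, adjusted p = 2.74e-05), while SLC2A1, GLUT1, had 9.76 and 9.69 against 11.13 and 11.05 (−1.37 ± 0.13). The glycolytic aldolase gene ALDOC had 4.63 and 4.73 against 9.12 and 9.23 (−4.49 ± 0.17), and NDRG1, a stress gene induced by hypoxia, differed by −4.50 ± 0.30. Over the 22 genes of hypoxia and glycolysis, 2 were higher in H1299 and 5 in H2009 (31.8% called, median −0.23). Among housekeeping lists, 2 of 17 cholesterol synthesis genes, 4 of 25 mitosis genes, 4 of 25 DNA replication genes, 7 of 25 proteasome genes and 2 of 20 ribosomal protein genes passed, 10.0% to 28% of a list against 24.8% of all genes. Kept calls among them were MAD2L1 of the spindle checkpoint (−1.07 ± 0.14), the replication genes MCM7 (1.40 ± 0.25) and PRIM1 (0.99 ± 0.16), and the proteasome ATPase PSMC1 (1.42 ± 0.11).

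Markers of other cell types were checked in these cultures. Of 12 endothelial markers 0 passed, with mean levels over the list of 3.90 and 4.05 in H1299 and 3.97 and 3.91 in H2009. Of 11 leukocyte markers 3 passed (27.3%, against 24.8% of all genes). The list's mean levels were 4.62 and 4.73 in H1299 and 4.55 and 4.55 in H2009. The defining marker PTPRC had a mean of 2.9 in both lines, and CD68, a lysosomal protein not limited to macrophages, was higher in H1299 (2.27 ± 0.31). ITGAM was also higher in H1299 (0.88 ± 0.15, not kept). CD79A had 5.19 and 5.14 in H1299 and 7.10 and 6.44 in H2009 (−1.61 ± 0.34, not kept). Of 12 fibroblast markers 2 passed (16.7%), MFAP5 (2.13 ± 0.40, not kept) and FBLN2 (−1.46 ± 0.12). Mean levels over that list were 4.19 and 4.14 in H1299 and 4.12 and 4.08 in H2009.

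Genes next to each other on a chromosome differed together in places. Copy number was not measured, and the source of these runs was not tested. The median difference was taken over 17237 windows of 20 neighbouring genes on the autosomes, which overlap each other, and 98% of them lay between −0.83 and 0.73. The largest median in favour of H2009 was −3.04, on chromosome 15 from NPAP1 to SNORD116-27, where 15 of 20 genes were higher in H2009 and 0 in H1299. This window is made up mostly of the SNORD116 cluster of imprinted small nucleolar RNAs, which lies in the Prader-Willi region. Of 20 SNORD116 copies measured, 16 were higher in H2009, with differences from −8.02 to −0.10. SNORD116-14 had 2.66 and 2.67 in H1299 and 10.59 and 10.79 in H2009. The 20 copies of the neighbouring cluster SNORD115 differed by −0.27 to 0.23, and 0 were called. Both families were singled out after their values were seen.

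A second cluster of related genes, the protocadherins on chromosome 5, gave a median of −1.69 between PCDHA4 and PCDHB9, with 15 of 20 genes higher in H2009. Other windows were made of unrelated genes. On the same chromosome the medians were −1.36 from MED10 to OTULINL and −1.34 from LMBRD2 to CARD6, and on chromosome 13 the median was −1.25 from RAB20 to LAMP1. In favour of H1299, 4 of the 5 largest windows lay on chromosome 14, led by 1.32 from DYNC1H1 to KLC1, where 17 of 20 genes were higher in H1299. The exception called in the other direction was TNFAIP2 (−3.45), a gene induced by tumour necrosis factor. The fifth was a run of zinc finger genes on chromosome 19 from ZNF850 to ZNF573, with a median of 1.00 and 14 of 20 genes higher in H1299. Over whole autosomes, the share of genes higher in H1299 reached 28.0% on chromosome 18, against 12.5% of all genes, and the share higher in H2009 reached 26.9% on chromosome 13, against 12.3%.

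**Figure D4:**
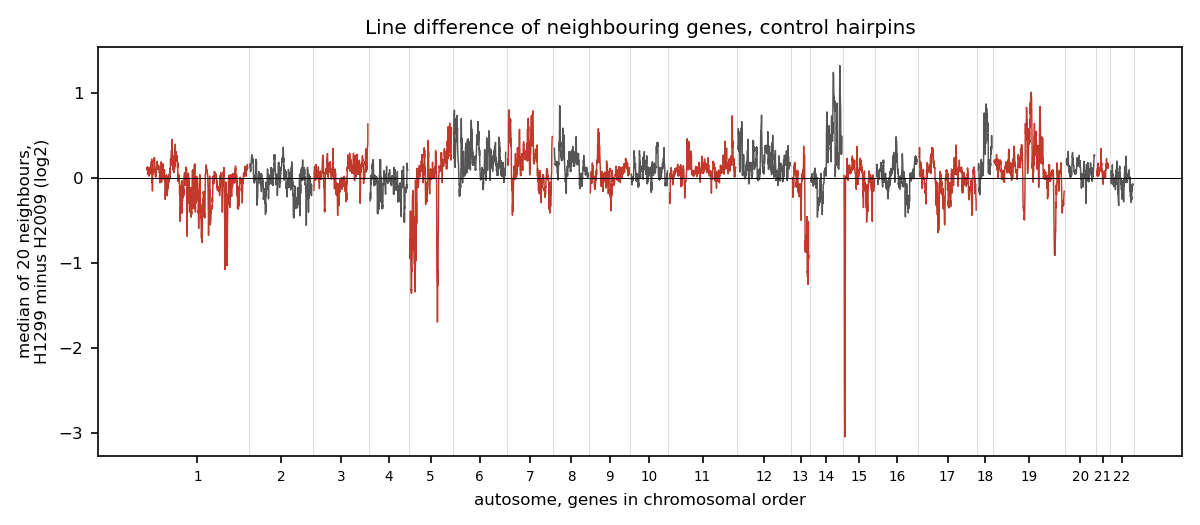
Median difference between the lines under control hairpins (y axis, H1299 minus H2009, log2) in each window of 20 neighbouring genes, in chromosomal order over the 22 autosomes (x axis, colours alternate between chromosomes). The deepest point, −3.04, is the SNORD116 cluster on chromosome 15, and the highest, 1.32, lies on chromosome 14.

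The 4 arrays with PTK7 hairpins gave a second reading of the line difference in other cultures of the same lines. Fitted on the 4 control arrays alone, 6581 genes passed (35.8%), 2528 of them at 2-fold or more (13.7%). In the PTK7 arrays 2520 of these 2528 had the same sign (99.7%), against 13684 of all 18404 genes. For 2435 of the 2528 (96.3%) the lines did not overlap in that direction. Of all genes, 54.1% did not overlap there in either direction. The PTK7 arrays alone called 2544 genes (13.8%), and 1759 of the 2528 were among them with the same sign. Sizes were not always kept. Of the 2408 genes called at 2-fold or more in the main fit, 159 had a difference that was halved or less in the PTK7 arrays. Examples are ID2 (−3.32 under control and −0.65 under PTK7 hairpins), SOX2 (−3.46 and −1.60) and ITGB8 (−2.27 and −0.81). CDH1 had 3.97 and 4.02 in H1299 and 11.30 and 11.43 in H2009 in the PTK7 arrays, and ZEB1 had 8.79 and 8.47 against 5.23 and 5.36. All 30 of the largest differences passed there too, from 4.06 to 7.09 in favour of H1299 and from −8.28 to −5.83 in favour of H2009. The difference of the 2 line differences passed in 0 of 18404 genes by limma (lowest adjusted p 0.13), with 951 at an unadjusted p under 0.05.

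**Figure D5:**
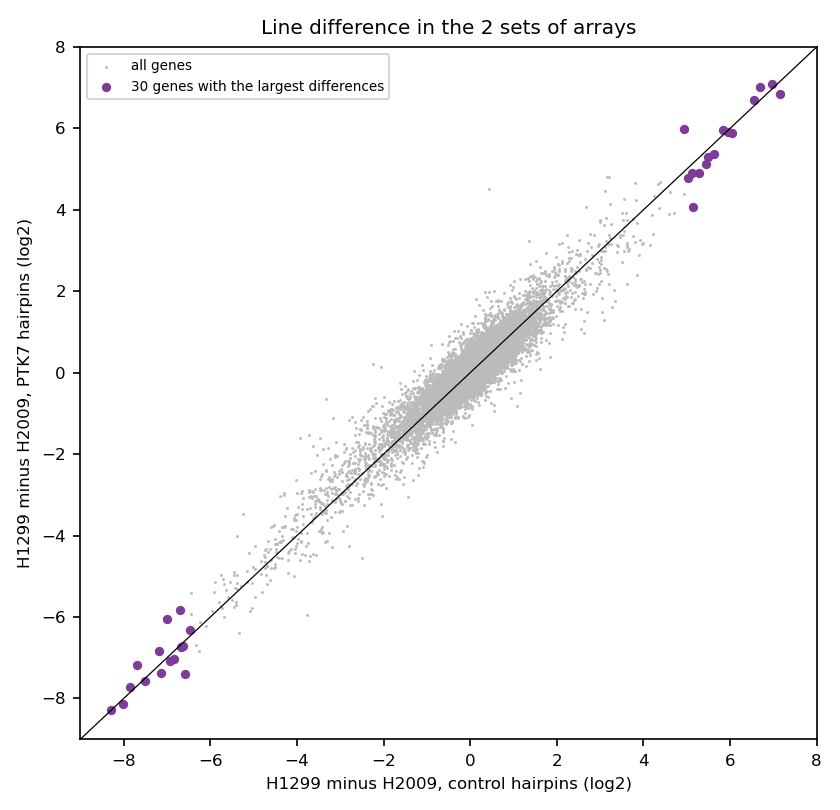
Line difference of each gene (H1299 minus H2009, log2) in the control arrays (x axis) and in the PTK7 arrays (y axis), with the line of equal values. The 30 genes with the largest differences under control hairpins (purple) keep their side in both sets, and some lie off the diagonal, such as LEF1 at 5.15 and 4.06, PLAC8 at 4.94 and 5.98 and TXNIP at −7.0 and −6.04.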

How the data were processed

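RNA of 8 samples was measured on 1-colour Affymetrix arrays with 32321 probe sets. The values the authors deposited are log2 expression. The submitters' processing notes name RMA and R 2.14.0. RMA subtracts background, equalizes the distributions of arrays and summarizes probes, which compresses low values and would remove a shift common to all genes. The number of arrays limits the precision. Genes were named by the platform's annotation of the probe sets: 19158 had 1 symbol, 1388 several and 11775 were not listed there. For the 637 genes with several probe sets, that with the highest mean over 8 arrays was taken, giving 18404 genes.

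limma 3.58.1 (R 4.3.3) fitted a mean per group over all 8 arrays (4 residual degrees of freedom) and tested H1299 minus H2009 under control hairpins, with Benjamini-Hochberg adjustment over all genes and a threshold of 0.05. The groups follow the titles. It was also run on 10 simulated sets of 18404 genes with independent normal noise, where 100 genes were changed 2-fold and 100 were changed 4-fold. There it recovered 66.7% of 2-fold and 98.1% of 4-fold changes, and 4.82% of its calls were false. In the deposited data many more genes differed, and deviations of same-hairpin arrays correlated between the lines, so these rates need not hold there. The labels do not say that a hairpin marks a shared batch, so no block was used. No 2 arrays held identical values.

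The comparison and the 41 gene lists were chosen with earlier results of these data known. Named genes are PTK7, the 15 largest called differences per direction, up to 5 called members per direction and some always-named members of each list, and the ends of the 5 windows per direction with the largest medians. Other list members are named as examples. Lists got no set test. Alternatives covered scaling, probe set choice, filter, prior, hairpin block, control arrays alone and each array left out. Genes that are not in the annotation used are not analysed here, and a genome was not used. Gene order came from RefSeq's table, promoters and microRNAs from RefSeq (GRCh38.p14).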

Additional observations from a re-analysis of the deposited data

Results flagged for a closer look

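For 2 named genes the line difference pointed one way under control hairpins and the other way under PTK7 hairpins, without overlap between the lines in either set. The same holds for 532 of 18404 genes (2.89%). TAP1, a transporter of antigen peptides, had 8.31 and 8.38 in H1299 and 8.67 and 8.67 in H2009 under control hairpins, but 8.70 and 8.62 against 8.43 and 8.14 under PTK7 hairpins. The change of the difference was −0.70, and limma's test of it gave an adjusted p of 0.855. SLPI, a secreted protease inhibitor, had 4.15 and 4.21 against 4.15 and 4.14, and then 4.15 and 4.09 against 4.30 and 4.55. Its control arrays are separated only beyond the second decimal. The change was 0.35 (adjusted p = 0.922), with log2 values of 5 or less throughout. Neither change passed the test of the difference itself.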

How the results depend on the processing

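Leaving out 1 array at a time gave 2196 to 5298 called genes, 965 to 2749 of them higher in H1299 and 1231 to 2549 higher in H2009. At 2-fold or more the same fits gave 1839 to 2487 genes. The 4 control arrays alone called 3520 genes higher in H1299, against 2296. Quantile normalization, median centring, cyclic loess, other probe set rules, other priors and removal of the dimmest 40% kept every count of calls under control hairpins within 1.5 times. Cyclic loess gave 1939 genes higher in H1299 and 2590 higher in H2009. Under PTK7 hairpins the count rose from 2544 to 4510 when all 8 arrays were fitted together, and to 4995 with the hairpin as a replicate block. The test of the change between both sets called 1 gene in place of 0 with a trended prior, and 1 with the block. The lines share the hairpin constructs, and the labels name no shared culture or batch. Deviations of same-hairpin arrays correlated across genes at 0.23 for the control pair and 0.407 for the PTK7 pair, and the block gave 5767 calls under control hairpins, 4498 of them among the 4566. No called named gene changed sign under any alternative run, while 6 of the 24 that were not called changed sign when a control array was left out. Of 239 named calls 80 were lost under at least 1 alternative, and 0 of the 30 largest. On the control arrays alone, 5 named genes that were not called passed, AXL, MET, MDM2, BMP4 and REST.

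Scaling moved the median difference of all genes from 0.064 to 0.114 (median centring) or −0.001 (cyclic loess). The medians of the imprinted, other receptor tyrosine kinase, MHC class II, cytokine, DNA replication, proteasome, leukocyte, endothelial and fibroblast lists changed sign with it. Of 51 list and window medians, 32 moved by more than the spread between arrays of a line with cyclic loess, 16 with median centring, 3 with quantile normalization, and 29 of 48 without the dimmest 40%. Leaving out a control array moved 8 to 24. No detection call separates low signal from background, and 2 arrays per line limit every call.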
